A study of Mus musculus with 8 samples.

Results

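The regions described here are those that the deposited table of open chromatin in mouse gastrocnemius muscle lists under the gene section 5' UTR Exon on chromosomes 1 to 19. They were taken by that label and split by the listed distance to the annotated transcript start. No measured signal entered this rule, but it was chosen with earlier results of these data known. There were 44475 such regions among the 489637 regions of the table, or 9.08%, on 5189 transcripts of 4554 genes. The near class, under 1000 bp from the start, held 5332 regions (12.0%), the middle class, from 1000 to 10000 bp, held 10808 (24.3%), and the far class, above 10000 bp, held 28335 (63.7%).

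ATAC-seq, in which a transposase cuts accessible DNA, was run on 8 libraries of gastrocnemius, the large calf muscle, from mice aged 6 months. All 8 libraries had the genotype Cre+:iMSBmal1 fl/fl, so Cre and the floxed alleles of the clock gene Bmal1, which the table lists as Arntl, were present in both groups. Mice of the 4 Vehicle libraries received vehicle and those of the 4 iMSBmal1KO libraries received tamoxifen, so the loss of Bmal1 and the drug cannot be told apart. Nuclei came from a pair of whole muscles per library, and the labels used here name neither the promoter that drives Cre nor the sex, strain or time of day.

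The 5' untranslated region is the part of a messenger RNA ahead of the coding sequence. It is often split over several exons, and a gene can use alternative first exons, so the DNA between the first base transcribed and the start codon may hold long introns with enhancers and further promoters. BMAL1 pairs with CLOCK, or with its relative NPAS2, on E-box elements of DNA and drives the Period and Cryptochrome repressors and the REV-ERB receptors. The repressors shut the pair off, while REV-ERB and ROR proteins compete for ROR elements, among them those of Bmal1 itself.

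Sequences are shown for the clock motifs that lay inside a member region or in a promoter of a gene with a called region. Mouse RefSeq promoters of the GRCm38.p6 assembly, from 250 bases before to 50 after a start, were searched on both strands for the E-box CACGTG, its variant CACGTT, the D-box TTANGTAA, the ROR element TAGGTCA, the MEF2 site, and, apart from these, the GC box GGGCGG and the TATA box TATAAA. Of the 44475 regions 134 overlapped a promoter window of their own gene, and 5 of these held one of the first 5 motifs, 2 of them an E-box. The lines below give the strand of the gene with the motif in capitals. The first is the ROR element of Arntl, starting 30 bp after a RefSeq start, and the others are the E-box, its variant and the ROR element inside member regions:
Arntl, chr7:113207531-113207557, plus strand: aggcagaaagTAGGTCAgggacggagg
Dgka, chr10:128737614-128737639, minus strand: agttcggagtCACGTGtccgaagcgc
Slc29a1, chr17:45595306-45595331, minus strand: gcagcgccagCACGTGgcgcgcatgg
Ppp1r37, chr7:19562383-19562408, minus strand: attcgccggtCACGTTtcttttttcc
Psmc2, chr5:21786534-21786560, plus strand: atcacgatttTAGGTCAtcaactgagc
These 4 member regions were named for holding a motif and not for their values. The regions of Dgka, Slc29a1 and Psmc2 had mean signals of 7.78, 5.68 and 3.38 in Vehicle and were too low to be tested. The fifth match was a MEF2 site in Dido1, also too low. The region of Ppp1r37 had 175 ± 48.6 in Vehicle and 207 ± 47.5 in iMSBmal1KO (SD, 4 libraries each), and its change of 0.25 ± 0.23 on the log2 scale did not pass the test (SE, adjusted p = 0.723 by limma, a linear model fitted across all regions).

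Promoters of genes with member regions held the E-box in 8.74% of cases (5231 promoters), against 7.15% of all 32851. They held the GC box in 55.0% of cases, against 35.7%, and the TATA box in 7.91%, against 13.6%. Of the 12 genes with a region called changed below, 8 had a RefSeq promoter here, 22 promoters in all. None of these 22 held an E-box of either spelling or a D-box, and 1 held the ROR element, that of Arntl. The remaining called genes were not searched, so nothing can be said here of their motifs. Greb1l was among these, as chromosome 18 had no promoters here. Nor was a promoter at the listed start of Per2 or Slc2a3 searched. The RefSeq start nearest their called regions was 13900 and 18929 bp away and belonged to another gene. A match describes letters in these windows only, and most member regions lay outside them.

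The label was first set against the positions. The 44475 regions reached from 100 bp to 2948669 bp from the listed start, with a median of 17298 bp and a median length of 106 bp. On the transcripts that held member regions the table also listed intron, coding exon and 3' UTR regions, and none of these, including 2047 in coding exons and 1049 in 3' UTR exons, lay nearer to the start than the farthest member region of its transcript. Only 150 of the 5189 transcripts had any region listed as Intron 1. The label thus covered the whole stretch from 100 bp past the start up to the coding sequence, introns included, and the regions are called 5' UTR interval regions from here on. It begins at 100 bp because regions from just under 1000 bp before to 99 bp after a start were listed as TSS.

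Most of the regions lay on transcripts that held many. The 1289 transcripts with 10 or more member regions, 24.8% of all 5189, held 72.9% of them, and on 1656 transcripts the member regions spanned over 10000 bp. A single transcript of Fgfr2, a fibroblast growth factor receptor, held 665 regions over 2.82 Mb, and regions of 37 other genes lay inside that span. Celf2, an RNA-binding splicing regulator, held 194 regions and Thrb, the thyroid hormone receptor beta gene, 190. Regions of 1 transcript share their neighbourhood and are not independent of each other.

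Near regions were close to starts in RefSeq as well, and far regions were not. A RefSeq start of any gene lay within 1000 bp of 67.6% of near, 5.01% of middle and 1.74% of far regions. The set of RefSeq starts was incomplete, with none on chromosome 18 and promoters for the genes of 77.5% of member regions. Regions whose start was missing counted as not within 1000 bp, so these percentages can be too low. Protein-coding transcripts held 96.4% of the regions. Of all member regions 39.8% touched another member region end to end, so that 1 open stretch could be listed in several pieces.

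Depth as recovered from the deposited values was 4.31 to 29.5 M read equivalents (M is 1000000) per library, and Vehicle replicate 4 was the shallowest, with 16.5% of its signal on the mitochondrial chromosome. Signal at the start regions of muscle fibre markers was 91.4 to 154 per 100 bp in Vehicle and 106 to 141 in iMSBmal1KO, above the marker lists of the other 6 cell types, which ran from 2.60 to 57.9, and no marker gene with a start region was at 0. Macrophage markers, 5 of 8 with start regions, had 3.48 to 6.24 in Vehicle and 2.60 to 3.31 in iMSBmal1KO (log2 difference -0.51, exact two-sided permutation p = 0.0286, the smallest that 4 against 4 libraries allow, adjusted p = 0.2 over 7 lists), and their part in the results below was not tested. At the coding exon of Arntl with the lowest estimate, iMSBmal1KO replicate 3 had the highest signal, 39.4 against 8.56 to 18.4 in the other iMSBmal1KO libraries and 21.0 to 34.4 in Vehicle. That exon was picked for its low estimate, and the groups overlapped there. Which exon is floxed is not in the labels used here, and the 5' UTR interval regions are not taken as a check of the deletion. Within the span of that interval the table also listed regions under a coding exon of the short transcript Arntl-202. Coding exon regions there were not uniform. At 113242327 there were 12.3 to 15.6 in Vehicle and 33.9 to 48.9 in iMSBmal1KO, groups that did not overlap. At 113240378 there were 8.22 to 21.9 and 9.20 to 27.6, and the groups overlapped.

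5' UTR interval regions were moderately open. Summed signal per 100 bp was 12.8 ± 1.22 in Vehicle and 13.2 ± 0.483 in iMSBmal1KO (SD, 4 libraries each), against 50.3 ± 6.03 and 57.5 ± 4.33 at start regions and 10.5 ± 0.518 and 11.0 ± 0.632 between genes. Near regions had 14.8 ± 1.32 in Vehicle, middle regions 14.9 ± 1.54 and far regions 11.7 ± 1.10. In iMSBmal1KO the same classes had 15.2 ± 0.677, 15.3 ± 0.668 and 12.1 ± 0.405. Regions listed as Intron 1 had 12.6 ± 1.05 and 13.2 ± 0.521.

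Set beside Intron 1 regions at the same distance, 5' UTR interval regions were slightly more open. In 7 of 9 distance bins the median signal per 100 bp was higher in the 5' UTR interval in 8 of 8 libraries (exact two-sided sign-flip permutation p = 0.0078, adjusted p = 0.01 over the 9 bins). From 5000 to 10000 bp it was higher in 7 libraries and tied within 0.001% in Vehicle replicate 2 (exact permutation p = 0.0156, adjusted p = 0.0176), and above 100000 bp it was higher in 7 of 8 (exact permutation p = 0.0312, adjusted p = 0.0312). The excess was largest from 2000 to 5000 bp, a ratio of 1.20 ± 0.0361 (SD over 8 libraries), and smallest from 10000 to 20000 bp, 1.03 ± 0.0194. From 500 to 1000 bp the medians were 6.41 ± 0.467 and 5.59 ± 0.299 and the ratio 1.15 ± 0.0374. From 100 to 500 bp the medians were 6.35 ± 0.553 and 5.67 ± 0.537, and above 100000 bp they were 3.88 ± 0.184 and 3.63 ± 0.390. This comparison holds for listed regions alone, since closed DNA is not in the table. The libraries share the same set of regions, so these p-values measure how repeatable the order was over libraries, not the spread over regions or genes. Only 150 of the 5189 transcripts with member regions had any Intron 1 region, so the 2 sets lay mostly on different transcripts.

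**Figure D1:**
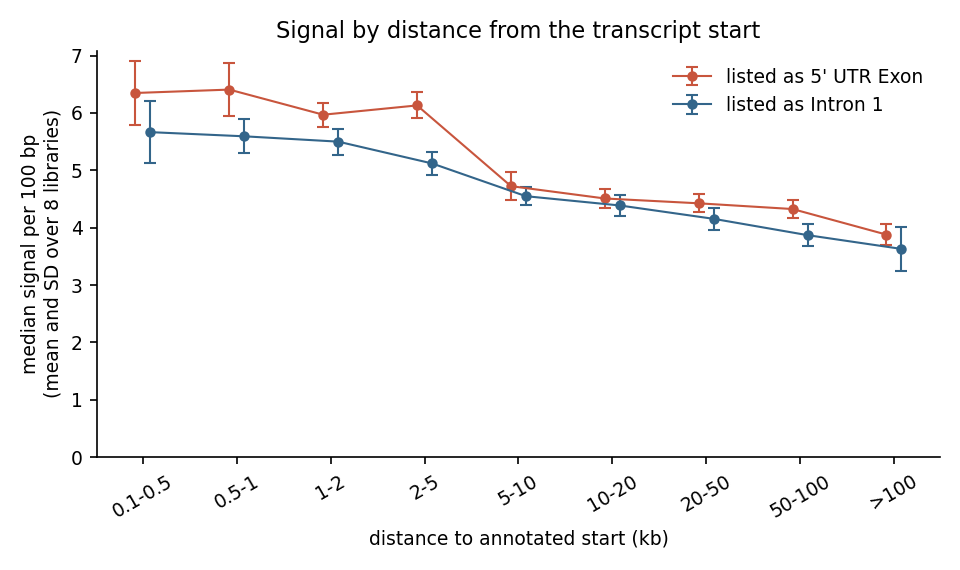
Median signal per 100 bp (y axis, mean and SD over 8 libraries) of 5' UTR interval regions (red) and Intron 1 regions (blue) in 9 bins of distance to the annotated start (x axis, kb). The red points lie above the blue in every bin, by a ratio of 1.03 to 1.20.

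The regions of highest Vehicle signal in each class were single strong sites. Among near regions Sin3a, the scaffold of a histone deacetylase complex, led with 1521 ± 283 (SD, n = 4), followed by Phf21a, a reader of unmethylated histone H3, with 1440 ± 146 and Klf15, a clock-controlled metabolic factor of muscle, with 1056 ± 199. Among middle regions Peg3, an imprinted gene, had 2261 ± 652, Rhbdf2, an inactive rhomboid protein, 1493 ± 235 and Myo18b, a muscle myosin, 1406 ± 285. These 6 regions overlapped between the groups. In iMSBmal1KO Klf15 had 1061 ± 154 and Peg3 2230 ± 212.

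The far class held the strongest region of all, in Filip1l, a filamin A-interacting protein gene, on chromosome 16 from 57391169 to 57391793, 38076 bp from its listed start and within the bounds of the overlapping gene Cmss1. Vehicle replicates 1 to 4 had 6115, 6947, 2906 and 2858, and iMSBmal1KO replicates 1 to 4 had 6708, 7846, 12904 and 9571. The groups overlapped, and Vehicle replicates 3 and 4 were the lowest. Next came Cuedc1 with 1846 ± 360 in Vehicle and 1586 ± 332 in iMSBmal1KO, and Tfeb, a regulator of lysosome genes, with 1608 ± 340 and 1405 ± 214 (SD, 4 libraries each).

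The share of autosomal signal that fell in 5' UTR interval regions did not differ detectably between the groups. Vehicle replicates 1 to 4 had 5.85, 5.79, 6.30 and 5.66%, against 5.90, 5.63, 5.10 and 5.71% for iMSBmal1KO. The means were 5.90 ± 0.279% and 5.58 ± 0.345% (SD, 4 libraries each; exact two-sided permutation p = 0.257, adjusted p = 0.4 over 4 shares). The groups overlapped, and iMSBmal1KO replicate 3 was the lowest in all 3 distance classes as well.

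By class the shares were 0.691 ± 0.0541% and 0.651 ± 0.0510% for near regions (Vehicle and iMSBmal1KO, SD, 4 libraries each, exact permutation p = 0.4), 1.69 ± 0.0972% and 1.59 ± 0.114% for middle regions (p = 0.343) and 3.52 ± 0.132% and 3.34 ± 0.180% for far regions (p = 0.171), each with an adjusted p of 0.4. The median level of tested regions, as log2(signal + 1) minus the median of all tested autosomal regions of the same library, was -0.16 ± 0.07 in Vehicle and -0.13 ± 0.04 in iMSBmal1KO (exact permutation p = 0.543, adjusted p = 0.96 over 7 values). The 3 classes and the differences between them had adjusted p-values from 0.96 to 1. In bulk muscle a change in the make-up of cells and a change in accessibility per nucleus cannot be told apart.

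**Figure D2:**
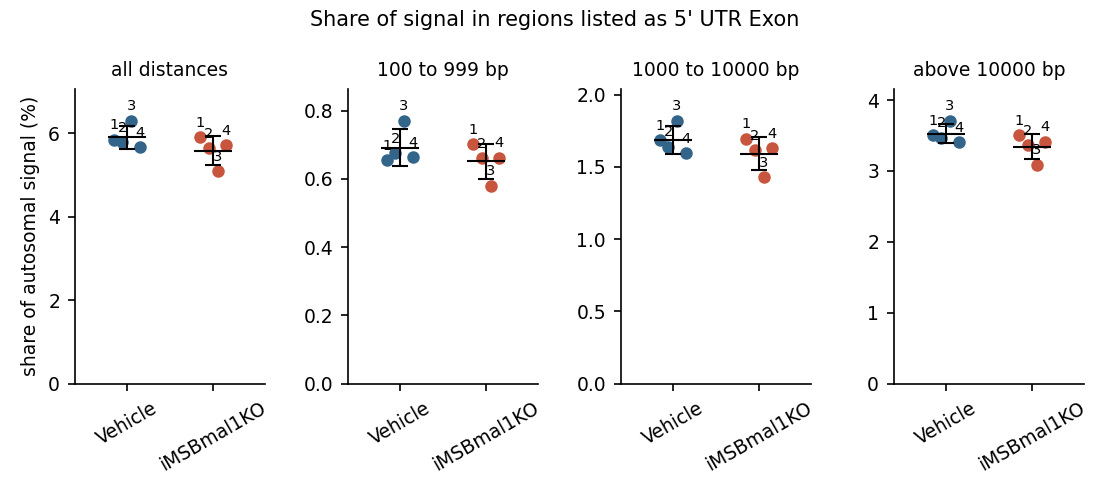
Share of each library's autosomal signal (y axis, %) in 5' UTR interval regions, for all distances and the 3 distance classes, with replicate numbers beside the points and mean and SD in black. Vehicle (blue) and iMSBmal1KO (red) overlap in every panel, and iMSBmal1KO replicate 3 is the lowest red point.

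Single regions were tested by limma on log2(signal + 1) across the whole table, and a region was called where its p adjusted over all 124901 tested regions was under 0.05. Of the 44475 regions 11767 (26.5%) passed the filter on low signal, close to the 25.6% of all autosomal regions. Of these, 14 in 12 genes were called, 6 higher and 8 lower in iMSBmal1KO, or 0.119%, beside a background of 0.0881% of all tested regions (0.0312% higher and 0.0568% lower). By class, 1 of 1605 near, 4 of 3316 middle and 9 of 6846 far regions were called, or 0.0623%, 0.121% and 0.131%. These shares were near the background and rest on few regions.

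At an unadjusted p under 0.05, 1032 regions stood out, 8.77% against 9.22% of all tested regions, with 5.99% higher and 2.78% lower against 6.59% and 2.63%. The groups did not overlap at 677 regions, 5.75% against 5.48%, and 58.3% of the log2 changes were positive, against 62%. The median log2 change was 0.08 against 0.12 over all tested regions, a difference of -0.04. Near, middle and far regions had medians of 0.06, 0.08 and 0.09. Under scalings that bring the median of all regions to between -0.0001 and 0.01 the median of the 5' UTR interval regions was -0.03 to -0.04, so changes are best read relative to all regions.

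The 3 transcripts with many regions named above held none of the calls. In the Fgfr2 transcript 140 of 214 tested regions were positive, the median log2 change was 0.18, and none was called by limma while 25 had an unadjusted p under 0.05. In that of Celf2 28 of 32 were positive with a median of 0.51, and none was called while 7 had an unadjusted p under 0.05. In that of Thrb 25 of 44 were positive with a median of 0.09, none was called, and 3 had an unadjusted p under 0.05. Over all tested regions 62% were positive, the median was 0.12, and 9.22% had an unadjusted p under 0.05. Regions of 1 transcript share neighbouring positions, and no difference between transcripts was tested.

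The count of 14 moved with single libraries, as did the count over all tested regions. Leaving out Vehicle replicate 4 gave 27 calls and Vehicle replicate 2 gave 16. Leaving out Vehicle replicate 1 gave 7 and Vehicle replicate 3 gave 6. Of the iMSBmal1KO libraries, replicate 1 gave 10 when left out, replicate 2 gave 7, replicate 3 gave 5 and replicate 4 gave 8. Over all tested regions the 110 calls became 32, 141, 41 and 281 without Vehicle replicates 1 to 4. They became 111, 43, 39 and 57 without iMSBmal1KO replicates 1 to 4. The regions called under all 20 alternatives, which included a threshold of 0.01, were 5 of the 14: the 3 of Npas2, that of Slc2a3 and that of Kifc3.

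**Figure D3:**
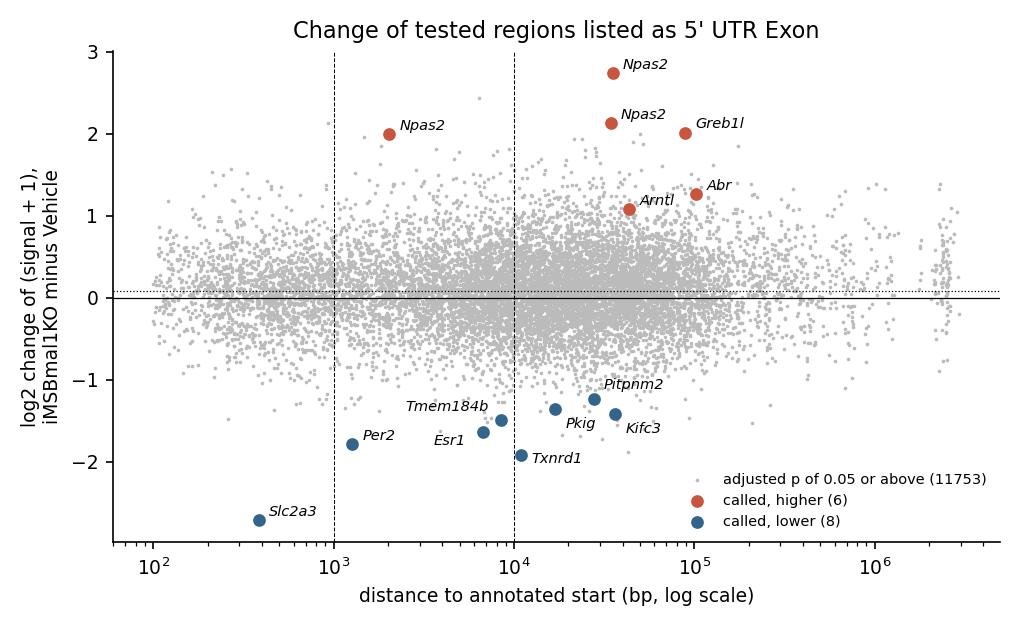
Log2 change of (signal + 1), iMSBmal1KO minus Vehicle (y axis), of the 11767 tested 5' UTR interval regions against the distance to the annotated start (x axis, bp, log scale), with called regions in red (6 higher) and blue (8 lower) and the class limits dashed. The cloud centres on the dotted median of 0.08, and called regions occur from 385 to 102748 bp.

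The clearest gains lay in Npas2, the partner of BMAL1 that can stand in for CLOCK. Its region on chromosome 1 from 39196234 to 39196447, 2022 bp from the start, had 48.0, 48.3, 35.0 and 34.4 in the Vehicle libraries, in replicate order, and 169, 185, 144 and 169 in the iMSBmal1KO libraries. The groups lay far apart (log2 change 2.00 ± 0.23, SE, adjusted p = 3.97e-04 by limma). A pair of called regions lay about midway along the interval, 34297 and 35203 bp from the start. The one from 39228509 to 39228783 had 18.1, 12.3, 10.2 and 9.38 in Vehicle and 57.8, 65.2, 68.0 and 38.9 in iMSBmal1KO (2.13 ± 0.31, adjusted p = 0.0046). The one from 39229415 to 39229986 had 3.20, 11.3, 7.63 and 6.25 and then 70.6, 27.6, 52.5 and 57.7 (2.74 ± 0.37, adjusted p = 0.0028).

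Npas2 had 44 regions in all, of which 11 were tested. All 11 estimates were above 0, with a median log2 change of 1.00, 9 had an unadjusted p under 0.05, and at 8 the groups did not overlap. Over all tested regions 62% were positive, 9.22% had such a p, and at 5.48% the groups did not overlap. The 7 tested start regions of Npas2 had a median of 1.77. A region at 935 bp missed the threshold, with a mean of 5.24 ± 1.49 in Vehicle and 30.5 ± 23.1 in iMSBmal1KO (SD, 4 libraries each; 2.13 ± 0.43, adjusted p = 0.0679). It passed without Vehicle replicate 4, with pseudocount 5, with loess scaling and with no filter. The 4 tested regions farthest from the start were uneven. At 59729 and 66191 bp the values were 0.93 ± 0.30 and 1.61 ± 0.71 and the groups did not overlap (SE, limma adjusted p = 0.417 and 0.524), while at 62470 and 62981 bp they were 0.30 ± 0.41 and 0.22 ± 0.41 with overlap (adjusted p = 0.822 and 0.872).

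Arntl, the gene of BMAL1 itself, had 42 regions with 20 tested, 18 of them positive with a median of 0.62. The called one, on chromosome 7 from 113250869 to 113251387 and 43343 bp from the start, had 199, 244, 140 and 166 in Vehicle and 336, 392, 412 and 419 in iMSBmal1KO (1.08 ± 0.21, adjusted p = 0.0468). The predicted gene Gm33721 overlaps this position in RefSeq. Its call was lost without any one of Vehicle replicates 1 and 3 and iMSBmal1KO replicates 1, 2, 3 and 4, with adjusted p-values from 0.0524 to 0.265.

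Other strong regions of Arntl were uneven. The strongest, 8795 bp from the start, had 394 ± 94.2 in Vehicle and 430 ± 61.8 in iMSBmal1KO (SD, 4 libraries each; 0.15 ± 0.20, adjusted p = 0.82). At 13281 bp there were 242, 172, 159 and 141 and then 282, 376, 332 and 336, groups that did not overlap (0.91 ± 0.21, adjusted p = 0.134). At 52995 bp there were 255 ± 54.1 and 381 ± 54.6 (0.60 ± 0.21, adjusted p = 0.445). The tested 5' UTR interval region nearest the start, at 157 bp, had 21.6 ± 8.71 and 21.7 ± 8.59 (0.03 ± 0.38, adjusted p = 0.986). The ROR element printed above lay outside this region, nearer the start. The 4 tested start regions of Arntl had a median log2 change of 0.39.

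**Figure D4:**
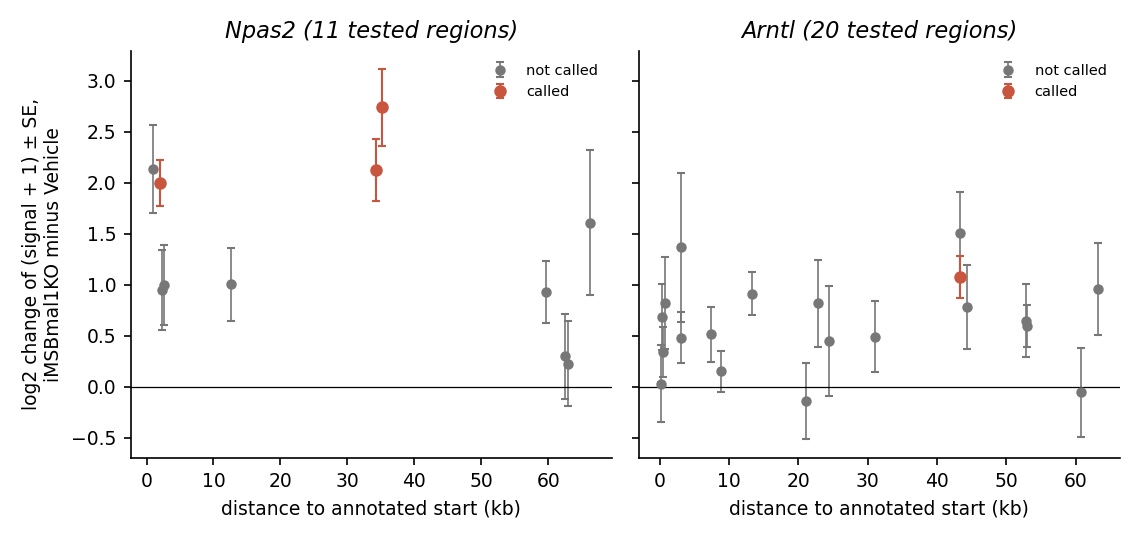
Log2 change of (signal + 1) ± SE, iMSBmal1KO minus Vehicle (y axis), of the tested 5' UTR interval regions of Npas2 (11, left) and Arntl (20, right) against the distance to the annotated start (x axis, kb). Called regions are red: 3 in Npas2, between 2.00 and 2.74, and 1 in Arntl, at 1.08.

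The other called gains lay in Greb1l and Abr. Greb1l, a relative of the estrogen-responsive gene Greb1, had its region on chromosome 18 from 10413750 to 10413881, 88571 bp from the start, with 20.3, 10.3, 5.72 and 6.25 in Vehicle and 52.6, 45.2, 28.6 and 41.4 in iMSBmal1KO (2.01 ± 0.37, adjusted p = 0.0327). Of 8 tested regions of Greb1l 7 were positive, with a median of 0.28. Abr had its region on chromosome 11 from 76510479 to 76510647 with 41.6, 59.6, 54.7 and 46.9 and then 123, 143, 99.0 and 128 (1.27 ± 0.23, adjusted p = 0.0327). It lay 102748 bp from the listed start but 1060 bp from another RefSeq start of Abr. The groups did not overlap in either gene.

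Both calls were lost when any one of several libraries was left out. That of Greb1l was lost without Vehicle replicate 3 or any one of the 4 iMSBmal1KO replicates, with adjusted p-values from 0.0789 to 0.166. That of Abr was lost without Vehicle replicate 1 or 3 or any one of the 4 iMSBmal1KO replicates, with 0.0673 to 0.189. Over the 20 alternatives the log2 change ran from 1.65 to 2.36 in Greb1l and from 1.09 to 1.37 in Abr.

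Of the called losses the deepest was in Slc2a3, which encodes the glucose transporter GLUT3, on chromosome 6 from 122801169 to 122801255 and 385 bp from the start. Vehicle replicates 1 to 4 had 53.3, 60.6, 68.6 and 34.4, and iMSBmal1KO replicates 1 to 4 had 5.99, 11.7, 5.96 and 6.27. The lowest Vehicle library was nearly 3 times the highest iMSBmal1KO library, and the log2 change was -2.71 ± 0.33 (SE, limma adjusted p = 6.96e-04). The 3 tested regions of Slc2a3 were all negative. The piece that touched it, 259 bp from the start, had 24.98 ± 14.4 and 7.61 ± 2.21 (SD, 4 libraries each; -1.48 ± 0.40, adjusted p = 0.253), and the piece at 114 bp had 13.8 ± 5.53 and 12.9 ± 3.82 (-0.03 ± 0.39, adjusted p = 0.984).

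Per2, a repressor that BMAL1 drives, had a called loss on chromosome 1 from 91457888 to 91458059, 1265 bp from the start. It had 75.7, 47.3, 55.9 and 37.5 in Vehicle and 16.7, 15.9, 11.9 and 13.8 in iMSBmal1KO (-1.79 ± 0.29, adjusted p = 0.0145), and the groups did not overlap. None of the 5 tested regions of Per2 was positive, with a median of -0.57, and that at 8093 bp had 236 ± 40.0 and 193 ± 21.8 (-0.28 ± 0.20, adjusted p = 0.655). The call was lost without any one of Vehicle replicates 1 and 3 and iMSBmal1KO replicates 3 and 4, with adjusted p-values from 0.055 to 0.119.

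Kifc3, a minus-end-directed kinesin motor, and Pitpnm2, a phosphatidylinositol transfer protein, held the strongest called regions that fell. That of Kifc3 on chromosome 8 from 95165992 to 95166379, 36433 bp from the start, had 443, 336, 465 and 306 in Vehicle and 147, 133, 128 and 164 in iMSBmal1KO (-1.42 ± 0.21, adjusted p = 0.0047). Of its 9 tested regions 3 were positive, and the groups did not overlap at a weaker region 556 bp away (26.2 ± 8.07 and 8.16 ± 2.04, SD, 4 libraries each; -1.55 ± 0.35, adjusted p = 0.118). That of Pitpnm2 on chromosome 5 from 124221479 to 124221843, 27608 bp from the start, had 352, 349, 310 and 278 and then 140, 161, 125 and 119 (-1.24 ± 0.20, adjusted p = 0.0122). This call was lost without any one of Vehicle replicates 1 and 3 and iMSBmal1KO replicates 3 and 4, with 0.0647 to 0.0789. Of 33 tested regions of Pitpnm2 10 were positive and this 1 was called.

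Esr1, the estrogen receptor alpha gene, had its called region on chromosome 10 from 4618780 to 4618871, 6759 bp from the start, with 87.4, 74.0, 56.6 and 56.3 in Vehicle and 18.8, 19.2, 20.3 and 26.3 in iMSBmal1KO (-1.64 ± 0.27, adjusted p = 0.0144). The piece 6 bp beyond it had 55.6 ± 13.0 and 20.6 ± 4.96 (SD, 4 libraries each) and missed the threshold (-1.39 ± 0.29, adjusted p = 0.0804); it passed without Vehicle replicate 4, with limma-voom and under all 4 other scalings. Of the 14 tested regions of Esr1 7 were positive. The call was lost without Vehicle replicate 1 or iMSBmal1KO replicate 2 or 3, with 0.0721 to 0.119.

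The last 3 losses lay in Txnrd1, Pkig and Tmem184b. Txnrd1, the cytosolic thioredoxin reductase, had 93.8, 48.3, 50.8 and 34.4 in Vehicle and 9.42, 10.0, 13.1 and 25.1 in iMSBmal1KO on chromosome 10 from 82844880 to 82845178 (-1.92 ± 0.35, adjusted p = 0.0345). Pkig, an inhibitor of protein kinase A, had 114, 82.2, 86.4 and 71.9 and then 35.1, 30.1, 26.2 and 45.2 on chromosome 2 from 163675226 to 163675429 (-1.36 ± 0.26, adjusted p = 0.0427). Tmem184b, a membrane protein gene, had 91.7, 61.6, 90.2 and 56.3 and then 18.8, 23.4, 23.9 and 40.1 on chromosome 15 from 79394912 to 79395064 (-1.48 ± 0.29, adjusted p = 0.0478). The groups did not overlap in any of the 3. They lay 10929, 16827 and 8505 bp from their starts, and 1 of 2, 1 of 11 and 3 of 14 tested regions of the 3 genes were positive.

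These 3 calls were also lost when any one of several libraries was left out. Txnrd1 was lost without Vehicle replicate 1 or 3 or iMSBmal1KO replicate 1, 2 or 3 (adjusted p from 0.0622 to 0.204), and Tmem184b without the same 5 libraries (0.102 to 0.265) and with pseudocount 0.5. Pkig was lost without Vehicle replicate 1, 2 or 3 or any one of the 4 iMSBmal1KO replicates (0.058 to 0.226). Over the 20 alternatives the log2 change ran from -2.20 to -1.65 in Txnrd1, -1.70 to -1.34 in Tmem184b and -1.53 to -1.23 in Pkig.

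**Figure D5:**
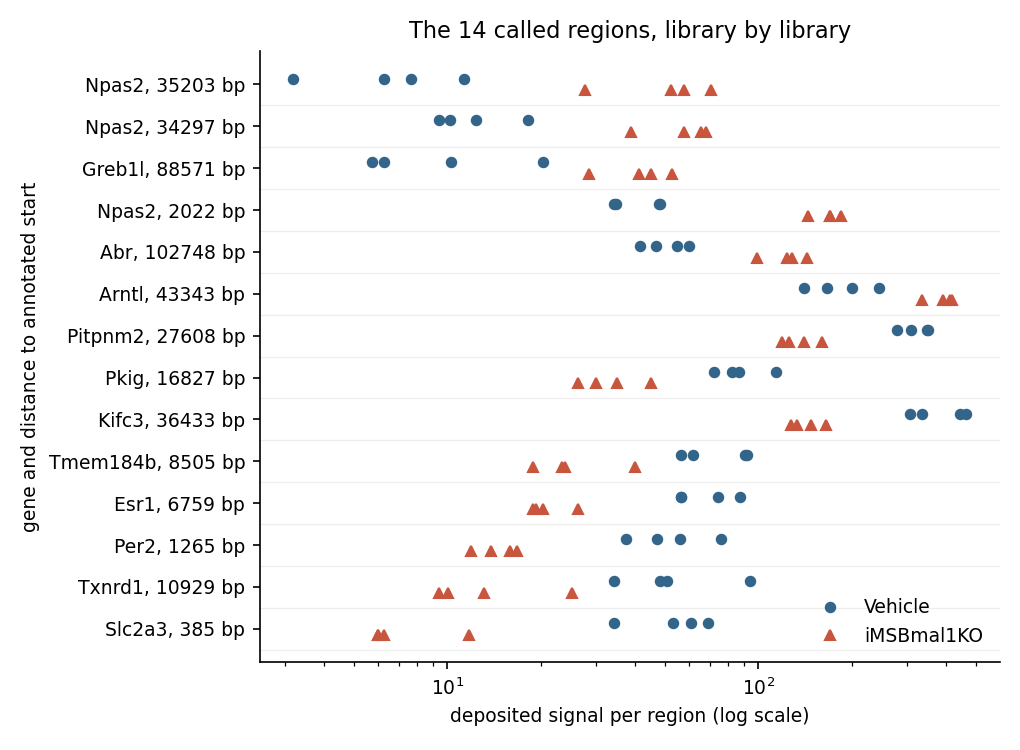
Deposited signal (x axis, log scale) of the 14 called 5' UTR interval regions in each of the 4 Vehicle (blue circles) and 4 iMSBmal1KO (red triangles) libraries, named by gene and distance to the annotated start (y axis). The groups do not overlap in any row: the upper 6 are higher and the lower 8 lower in iMSBmal1KO. The rows were chosen by the test on these same values, so their separation is a description and no further support.

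Open chromatin around the called regions moved with them in sign. Of 22 tested regions of any section within 1000 bp of a called one, found at 11 of the 14, 21 had the same sign and 14 an unadjusted p under 0.05, beside 9.22% of all tested regions. The pair of called Npas2 regions counted here as neighbours of each other, and without these 2 there were 19 of 20 with the same sign and 12 with an unadjusted p under 0.05. Touching or nearby pieces can be parts of 1 open site, so they are not independent of the call. Start regions of the called genes were less uniform. For gains their median log2 changes were 1.77 (Npas2), 0.39 (Arntl) and 0.28 (Abr), and Greb1l had none tested. For losses they were -0.75 (Slc2a3), -0.50 (Pitpnm2), -0.27 (Per2), 0.01 (Kifc3 and Esr1), 0.03 (Tmem184b), 0.18 (Txnrd1) and 0.42 (Pkig). Across 2280 genes with tested regions of both kinds, the median log2 change of a gene's 5' UTR interval regions and that of its start regions had a Pearson r of 0.21 and a Spearman rho of 0.22, given as a description across genes, which share libraries and are not independent replicates.

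The circadian gene lists were split by role and, like the other lists, were chosen with earlier results of these data known. Among activators and nuclear receptors 7 of 9 genes had regions and 4 had tested ones, 40 in all, of which 4 were called higher and none lower, 34 were positive, and the median was 0.54 above that of all tested regions. At an unadjusted p under 0.05, 18 were higher and 2 lower, beside 6.59% and 2.63% of all tested regions, of which 62% were positive. Npas2 and Arntl supplied 31 of the 40 and all 4 calls. Clock, the main partner of BMAL1, had 11.4 ± 5.75 in Vehicle and 20.8 ± 4.43 in iMSBmal1KO at its region of smallest p, 23717 bp from the start (SD, 4 libraries each; 0.89 ± 0.36, adjusted p = 0.504). Nr1d2, the REV-ERB beta receptor gene, had 18.9 ± 6.58 and 34.8 ± 3.68 at 4619 bp, and the groups did not overlap (0.90 ± 0.31, adjusted p = 0.434). Of the 7 tested regions of Nr1d2 3 were positive, with a median of -0.39, and those at 10835 and 4401 bp were the 2 lower ones (-1.08 ± 0.42 and -0.67 ± 0.31, adjusted p = 0.498 and 0.53).

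Among clock repressors 20 regions of 4 genes were tested, with 1 called, that of Per2, 8 positive and a median 0.30 below that of all tested regions. Nfil3 supplied 10 of the 20 and all 8 positive ones, with a median log2 change of 0.27. None of the tested regions of Per1, Per2 and Cry1 was positive, so the list median joins genes of opposite sign. Per1, the close relative of Per2, had 43.2 ± 6.50 and 30.1 ± 5.0 at 2306 bp (SD, 4 libraries each; -0.51 ± 0.27, adjusted p = 0.562), and all of its 4 tested regions were negative. Cry1, a Cryptochrome repressor, had 19.6 ± 2.89 and 18 ± 5.07 at 278 bp (-0.16 ± 0.32, adjusted p = 0.888). Nfil3, the repressor of D-box elements, had 88.4 ± 27.1 and 123 ± 34.4 at 6051 bp (0.49 ± 0.27, adjusted p = 0.576).

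Clock outputs and modifiers had 35 tested regions of 7 genes, none called by limma, 2 with an unadjusted p under 0.05 and 16 positive, with a median 0.14 below that of all and 0.23 below with limma-voom. Over all tested regions 9.22% had such a p and 62% were positive. Dbp, the D-box activator, had 28.6 ± 12.5 and 20.9 ± 6.03 at 151 bp (SD, 4 libraries each; -0.38 ± 0.34, adjusted p = 0.713). Timeless, a replication and clock protein, had 27.2 ± 7.64 and 15.1 ± 2.64 at 289 bp, groups that did not overlap (-0.78 ± 0.31, adjusted p = 0.499). The kinase Csnk1e (-0.65 ± 0.32, adjusted p = 0.549), the ubiquitin ligase part Btrc (0.97 ± 0.35, adjusted p = 0.465), the lipid receptor Ppara (0.43 ± 0.30, adjusted p = 0.638), the deubiquitinase Usp2 (-0.50 ± 0.35, adjusted p = 0.643) and the tetraspanin Tspan4 (-0.28 ± 0.41, adjusted p = 0.831) also missed the threshold at their regions of smallest p. The Per1, Dbp and Nfil3 values were of 1 sign in all alternatives run, while those of Cry1 and Tspan4 reversed in 1 each.

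Genes known to follow the clock in muscle had 15 tested regions of 4 genes, 3 of them positive, with a median 0.45 below that of all and 0.44 to 0.58 below under every scaling and limma-voom. None was called by limma, and 4 had an unadjusted p under 0.05, all lower, beside 2.63% lower among all tested regions. Tbc1d1 supplied 7 of the 15, 1 of them positive, and Hk2 3, none positive, so the list rests on few genes. Median log2 changes of the tested start regions were 0.11 for Tbc1d1, -0.05 for Hk2 and -0.004 for Slc2a4. Hk2, the muscle hexokinase, had 11.7, 10.3, 16.5 and 15.6 in Vehicle and 5.14, 7.53, 5.96 and 5.02 in iMSBmal1KO at 4845 bp, groups that did not overlap (-1.06 ± 0.46, adjusted p = 0.519). Tbc1d1, a regulator of glucose uptake, had 34.2 ± 6.75 and 20.4 ± 12.6 at 644 bp (SD, 4 libraries each; -0.95 ± 0.41, adjusted p = 0.517). Slc2a4, the insulin-responsive glucose transporter GLUT4, had the highest signal of the list, 534 ± 88.8 and 550 ± 50.1 at 345 bp, and the groups overlapped.

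No region of the other functional lists was called by limma. At an unadjusted p under 0.05, 6.59% of all tested regions were higher and 2.63% lower. Metabolic regulators had 197 tested regions (3 higher and 6 lower at an unadjusted p under 0.05, median 0.16 below that of all) and growth and atrophy genes 90 (1 and 4, 0.15 below, and 0.32 below with limma-voom). A second region of Tfeb, 1953 bp from the start, had 30.5 ± 7.25 and 15.3 ± 5.31 (-1.0 ± 0.33, adjusted p = 0.432). Mef2d, a muscle transcription factor, had 124 ± 28.6 and 72.2 ± 18 (-0.79 ± 0.25, adjusted p = 0.407), and Foxo3, an activator of atrophy genes, 28.1 ± 6.47 and 15.6 ± 4.43 (SD, 4 libraries each; -0.81 ± 0.32, adjusted p = 0.498). Fkbp5, a glucocorticoid-induced chaperone partner, had the highest signal of its list, 1234 ± 479 and 858 ± 378, and the groups overlapped.

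Sarcomere and Z-disc genes had 39 tested regions (2 and 2 at an unadjusted p under 0.05, median 0.04 above that of all), calcium handling 19 (3 and 0, 0.06 above), and glycolysis and glycogen 10 (1 and 0, 0.13 above). The first 2 medians lay below that of all with limma-voom. At the same unadjusted threshold 6.59% of all tested regions were higher and 2.63% lower. Tnnt3, the fast troponin T, had 537 ± 149 and 594 ± 54.1 at its strongest region and 23.0 ± 3.16 and 13.6 ± 4.32 at that of smallest p (SD, 4 libraries each; -0.77 ± 0.33, adjusted p = 0.518). Tnni1, the slow troponin I, had -0.76 ± 0.30 (adjusted p = 0.499), Asph, a protein of the calcium store, 0.90 ± 0.35 (adjusted p = 0.494) and Sln, the calcium pump inhibitor sarcolipin, 0.62 ± 0.29 (adjusted p = 0.535). Pvalb, the calcium buffer of fast fibres, had 780 ± 114 and 686 ± 51.2 at 605 bp, and the groups overlapped. Pkm, pyruvate kinase, had 107 ± 12.7 and 165 ± 20.9 at 3353 bp, groups that did not overlap (0.62 ± 0.21, adjusted p = 0.434), and Aldoa, aldolase A, -0.56 ± 0.32 (adjusted p = 0.589).

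The small lists had few regions. Ribosomal protein genes had 6 tested, all of Rps14 (smallest p at 0.67 ± 0.27, adjusted p = 0.499; list median 0.02 above that of all, 0.01 below with loess scaling and 0.10 above with limma-voom), oxidative phosphorylation 2, both of Atp5c1 (-0.50 ± 0.38, adjusted p = 0.67), and immediate-early genes 15, of which 9 were positive. Nr4a1 (-0.83 ± 0.36, adjusted p = 0.514) and Nr4a2 (0.40 ± 0.23, adjusted p = 0.583), orphan nuclear receptors of the last list, lay on opposite sides of 0. Of the cell type markers, muscle fibre genes had 21 tested regions with a median 0.06 below that of all, fibro-adipogenic 16 (0.10 below), endothelial 6 (0.27 below), Schwann 3 (0.01 above), smooth muscle 3 (0.26 below), satellite cell 1 (0.50 below) and macrophage 0. None of these was called by limma, and 3 of them had an unadjusted p under 0.05, beside 9.22% of all tested regions. Over the other scalings and limma-voom the medians reached 0.22 below (muscle fibre), 0.05 and 0.15 below (fibro-adipogenic), 0.07 below (endothelial) and 0.08 below (smooth muscle), and that of Schwann markers turned to 0.02 below with loess scaling and 0.11 below with limma-voom.

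The nearest call just missed was Zfand6, a zinc finger gene, with 41.5 ± 22.2 in Vehicle and 133 ± 23.1 in iMSBmal1KO at 9374 bp (SD, 4 libraries each; 1.81 ± 0.35, adjusted p = 0.0633). It passed in 12 of 20 alternatives, 3 of which left out Vehicle replicate 1, Vehicle replicate 4 or iMSBmal1KO replicate 1. At the class limits, Ube2g2 and Mapt, just inside 1000 bp, had 124 and 4.02 in Vehicle, and Strbp at 1000 bp and Arl8b at 1001 bp had 5.53 and 17.0. Csrp1 and Arhgap20 at 9996 bp had 2.48 and 24.0, Grb10 at 10000 bp had 31.9, and Cdc42 at 10003 bp had 1.31.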

How the data were processed

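Per the submitters' processing notes, Partek, Bowtie2, MACS2 and DESeq2 were used, with the builds mm10 and GRCm39; roles and versions are not given in the sources used here. The authors deposited a table with 1 normalised signal value per region and library. Its annotated transcript starts equalled a RefSeq GRCm38.p6 start in 6101 of 52423 cases, against 20 and 25 after shifts of 100 bp, and coordinates are printed on that build. Each library's values are near-whole multiples of 1 step (98.3 to 99.8% within 0.02), which gave the depths. limma 3.58.1 (R 4.3.3, trend and robust) was fitted to log2(signal + 1), pseudocount 1, over regions with at least 10 reads at the median depth in 4 libraries and 15 reads in all, with Benjamini-Hochberg adjustment. Fold changes of low regions are understated. Shares and medians had exact two-sided permutation tests over the 8 libraries, Python 3.11.15. On simulated data the fit called 73 of 100 changes of 4-fold and 12 of 100 changes of 2-fold. The simulation gave all regions 1 shared spread and no library differences beyond depth, so these rates need not hold for the real libraries. A region that was not called is thus not shown to be unchanged.

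Members and gene lists were chosen with earlier results of these data known. Named were all called regions, the 3 strongest per class, the clock genes' regions of smallest p, 2 of smallest p and 1 of highest signal per other list, 3 that just missed, and those at the class limits. One region that this rule names is not reported here. Replicates are separate samples by their labels, and nothing says more. Alternatives were other scalings, filters, pseudocounts, limma-voom, merged regions, a replicate block and leaving out each library.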

Additional observations from a re-analysis of the deposited data

Results flagged for a closer look

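Within groups of 4 libraries, 106 sets of values were checked for 1 library whose gap to the next took over 0.829 of the whole range, and 7 stood out; chance alone gives about 1 in 20, or 5.3. In the level of far regions, as a median log2 difference from all tested autosomal regions, Vehicle replicate 4 had -0.25 against -0.15 to -0.14 in the other Vehicle libraries. At the called region of Slc2a3 iMSBmal1KO replicate 2 had 11.7 against 5.96 to 6.27 in the other iMSBmal1KO libraries, still below every Vehicle library. At the region of Foxo3 Vehicle replicate 3 had 18.4 against 30.9 to 31.9, and at that of Sln Vehicle replicate 4 had 15.6 against 21.3 to 22.2. iMSBmal1KO replicate 3 stood apart in 3 sets: at Tnnt3 it had 7.16 against 15 to 16.3, at Usp2 35.8 against 12.5 to 14.6, and at Tspan4 4.77 against 13.8 to 14.6.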

How the results depend on the processing

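The count of 14 called regions became 30 under median-of-ratios scaling, 32 under trimmed-mean scaling, 22 under scaling to total autosomal signal, 35 under loess scaling and 38 with limma-voom, each holding all 14, and 5 at a threshold of 0.01. Without 1 library it ran from 5 to 27. Over all tested regions the 110 calls (0.0881%) became 279 (0.223%) and 289 (0.231%) under median-of-ratios and trimmed-mean scaling. They became 223 (0.179%) under scaling to total autosomal signal and 342 (0.274%) under both loess scaling and limma-voom. Without 1 library they ran from 32 to 281. Near regions called went from 1 to 2 under loess scaling, no filter, pseudocount 5 and the replicate block, and from 1 to 2 without 1 library. Middle regions went from 4 to 8 (median-of-ratios and trimmed-mean), 10 (loess), 12 (limma-voom) and 1 (threshold of 0.01), and from 1 to 8 without 1 library. Far regions went from 9 to 21 (median-of-ratios), 23 (trimmed-mean and loess), 15 (total signal), 25 (limma-voom), 5 (replicate block) and 3 (threshold of 0.01), and from 3 to 17 without 1 library.

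Higher and lower calls were 6 and 8 as reported, 12 and 18 under median-of-ratios, 12 and 20 under trimmed-mean, 7 and 15 under total-signal and 12 and 23 under loess scaling. All 4 share differences kept their sign and stayed short of the threshold under all 13 alternatives; without 1 library they ran from -0.42 to -0.15 points (all), -0.057 to -0.013 (near), -0.13 to -0.040 (middle) and -0.24 to -0.097 (far), and that for all members was -0.15 without iMSBmal1KO replicate 3 and -0.18 without Vehicle replicate 3. Over all chromosomes the difference for all members shrank from -0.32 to -0.03 points. The level differences, iMSBmal1KO minus Vehicle, changed sign: with a mean signal of at least 20 to -0.057 (all), -0.057 (middle) and -0.023 (far), with means in place of medians to -0.024, -0.030 and -0.015, and with loess scaling to -0.021, -0.032 and -0.0027. Without 1 library they ran from -0.0023 to 0.050 (all), -0.084 to 0.014 (near), -0.023 to 0.022 (middle), -0.0087 to 0.035 (far), -0.11 to 0.0062 (near minus middle), -0.10 to -0.014 (near minus far) and -0.052 to 0.031 (middle minus far). The cause of these changes was not tested. Of 45 named regions given with a change, Cry1 ran from -0.28 to 0.058 and Tspan4 from -0.44 to 0.071 without 1 library, above 0 only without iMSBmal1KO replicate 3.

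Same-numbered libraries did not deviate together, with correlations of -0.06, 0.14, 0.02 and 0.02, so the numbers were not taken as pairs; the replicate block gave 11 called regions, 5 higher and 6 lower, 9 of them among the 14. The regions of Abr, Txnrd1, Pkig, Arntl and Tmem184b were not among these, with adjusted p-values of 0.0537, 0.0749, 0.072, 0.0745 and 0.0815 by limma. Leaving out the Fgfr2 transcript, an alternative chosen after seeing the data, left the 14 calls. The count test on reads was not run, since not every value is a whole number of reads. Depth limits regions of low signal: 26.5% of members were tested.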
